A study of Mus musculus with 18 samples.

Results

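The genes described are 10 transcripts known as targets of the transcription factor NF-kB, chosen by symbol from the 54354 rows of a gene count table. They comprise the feedback inhibitors Nfkbia, Nfkbiz and Tnfaip3, the induced genes Tnfaip2 and Birc3, and the chemokines Cxcl1, Cxcl2, Cxcl5, Cxcl16 and Ccl20. Each symbol matched 1 row. Levels were measured by bulk poly(A) RNA sequencing in 5 libraries labelled Serine-free HFD and 5 labelled Serine-free CD. All 10 libraries are labelled as mouse colon, cell type tumor and genotype wild type. HFD stands for a high fat diet in the series' design text, while CD is not spelled out, and the labels name no age, tumour model or number of animals. RNA came from organoids according to the extraction protocol, whereas the design text describes live cells sorted from colons and colon tumours. Whether libraries with the same label are separate animals or separate cultures is not said, so every p-value reflects only how far these libraries scatter, part of which may be technical. In bulk RNA, fewer cells that express a gene and less of its RNA per cell cannot be told apart.

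NF-kB dimers are held in the cytoplasm of resting cells by IkB proteins. Signals from cytokine and microbial receptors activate the IKK kinases, which mark IkB for destruction, and the freed dimers enter the nucleus and bind short kappaB sites near their target genes. Among the first targets are the genes of IkB alpha and of the enzyme A20, which shut the pathway off again, and, in intestinal epithelium, chemokines that draw neutrophils and lymphocytes to the tissue.

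Matches to the kappaB site in the promoters are shown because this site is the known link between the genes and NF-kB. The genes were chosen as known targets, so how many hold a match is not independent of that choice. RefSeq promoter windows (GRCm38.p6, 250 bases before to 50 bases after a start) were found for 7 of the 10 genes. The kappaB consensus, a motif of 10 letters, was searched on both strands, and 5 of these 7 genes held at least 1 match: Nfkbia, Tnfaip3, Cxcl1, Cxcl2 and Ccl20. Counted by window rather than by gene, 4.51% of all 32851 promoter windows of the same length held a match. Capitals mark the matched letters, all windows are read 5′ to 3′ along the gene's strand, and each match has 30 bases on either side.
Nfkbia: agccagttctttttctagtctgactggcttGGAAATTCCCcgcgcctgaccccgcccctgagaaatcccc
Tnfaip3 site 1: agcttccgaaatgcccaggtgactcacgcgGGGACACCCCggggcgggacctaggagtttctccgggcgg
Tnfaip3 site 2: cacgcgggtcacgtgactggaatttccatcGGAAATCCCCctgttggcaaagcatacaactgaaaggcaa
Cxcl1: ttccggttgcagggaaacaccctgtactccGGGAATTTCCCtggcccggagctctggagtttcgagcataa
Cxcl2: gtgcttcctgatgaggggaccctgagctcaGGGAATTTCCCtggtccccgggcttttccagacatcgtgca
Ccl20: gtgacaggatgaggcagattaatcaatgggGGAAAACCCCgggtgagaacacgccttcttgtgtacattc
Offsets are counted from 0 at the annotated start. The Nfkbia window lies at chr12:55492637-55492706 on the minus strand, with its match at offsets -29 to -20. Both Tnfaip3 windows lie on the minus strand, at chr10:19015496-19015565 with offsets -125 to -116 and at chr10:19015383-19015452 with offsets -12 to -3. The Cxcl1 window is chr5:90891144-90891214 on the plus strand, with offsets -71 to -61, and the Cxcl2 window is chr5:90903772-90903842 on the same strand, with offsets -97 to -87. Ccl20 has its window at chr1:83116656-83116725 on the plus strand, with offsets -80 to -71. Cxcl1 and Cxcl2 share the same matched letters, in which 2 matches on opposite strands overlap, although only 33 of the 71 positions of the windows are identical. In Nfkbia, Ccl20 and the second Tnfaip3 site the consensus reads on the strand opposite to the gene. The windows of Birc3 and Tnfaip2, and a second Tnfaip3 window at another annotated start, hold no match to these letters. Nfkbiz, Cxcl5 and Cxcl16 have no printed window. A match describes letters only and is not a measured binding site.

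Most of the 10 genes had more RNA in most Serine-free HFD libraries than in most Serine-free CD libraries, but 1 library of each group stood apart and none of the 10 was called by edgeR. Cxcl16, a chemokine made as a membrane-bound protein, and Tnfaip3, which encodes A20, were higher in every Serine-free HFD library than in any Serine-free CD library. Ccl20, the epithelial chemokine that attracts CCR6-positive lymphocytes and dendritic cells, had the largest fold change and was higher in 4 of 5 Serine-free HFD libraries than in any Serine-free CD library. Nfkbia, Nfkbiz and Tnfaip2 ran the other way in the comparison of means, which turned on Serine-free CD library 1.

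All 10 genes were measured well enough to be tested, among 11780 genes. Levels are given as CPM, counts per 1000000 counts of a library's total after scaling by TMM, which corrects totals for differences in RNA composition. With edgeR's quasi-likelihood test 0 of the 10 were called at an adjusted p under 0.05, against 0.323% of all genes (0.153% higher and 0.17% lower), and 4 had an unadjusted p under 0.05 (Tnfaip3, Cxcl1, Cxcl16 and Ccl20), against 11.6% of all genes. DESeq2 called 1, Cxcl16, against 2.53% of all genes, and limma-voom with sample quality weights called 2, Cxcl16 and Tnfaip3, against 1.43% of all genes. A positive log2 fold change (Serine-free HFD over Serine-free CD) was found for 6 of the 10, against 51.4% of all genes. The median log2 fold change of the 10 was 0.80 and that of all genes tested 0.02. For 2 of the 10 the groups were fully separate, against 3.65% of all genes in either direction and 2.23% in the higher direction. On simulated counts of this comparison the test recovered 39% of the genes made to differ by 4-fold and 0% of those made to differ by 2-fold.

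**Figure D1:**
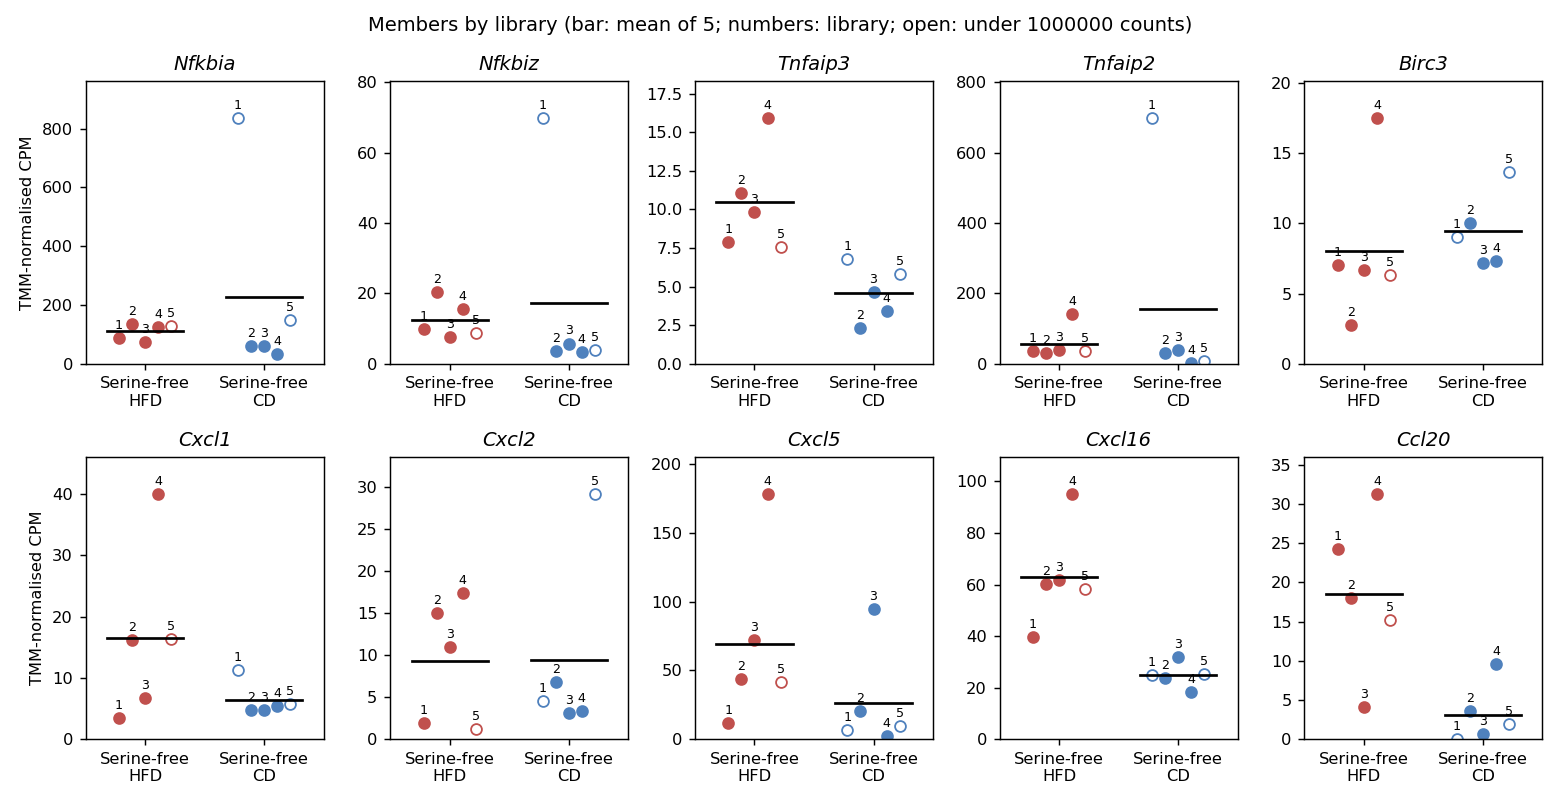
Level of each gene (TMM-normalised CPM, linear axis from 0) in the 5 Serine-free HFD libraries (red) and the 5 Serine-free CD libraries (blue), with library numbers. Bars are means of 5 and open points are libraries under 1000000 counts. The groups separate for Tnfaip3 and Cxcl16, and Serine-free CD library 1 stands far above the rest for Nfkbia, Nfkbiz and Tnfaip2.

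Depth differed widely. Total counts were 727610 to 12146933 in the Serine-free HFD libraries and 499774 to 12841275 in the Serine-free CD libraries, and library 5 of Serine-free HFD and libraries 1 and 5 of Serine-free CD were under 1000000. In those 3, a floor of 3 counts corresponds to 3.79, 6.76 and 5.84 CPM, against 0.226 to 0.691 CPM in the other 7. Rows of ribosomal RNA took 2.97% to 7.19% of the counts in the Serine-free HFD libraries and 2.08% to 22.0% in the Serine-free CD libraries, with the highest shares in Serine-free CD libraries 1 (22.0%) and 5 (14.6%). The nuclear RNA Malat1 took 12.1% of the counts in Serine-free CD library 1 and at most 1.66% in any other library. Epithelial markers were abundant throughout, with a summed level of 5649 to 12407 CPM in Serine-free HFD and 3071 to 7381 CPM in Serine-free CD libraries. Of the 14 tested, 12 had a positive log2 fold change, against 51.4% of all genes, with a median of 0.69. None was called by edgeR, and 6 had an unadjusted p under 0.05, against 11.6% of all genes. The groups were separate for 2, against 3.65% of all genes. Smooth muscle markers moved with the groups: their summed level was 171 to 264 CPM in Serine-free HFD and 2.94 to 24.8 CPM in Serine-free CD libraries, edgeR called 3 of the 7 tested higher (Acta2, Actg2 and Myl9), and the groups were separate for all 7. The part of depth, RNA content, epithelial markers and smooth muscle markers in the results below was not tested.

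Nfkbia encodes IkB alpha, the inhibitor that holds NF-kB in the cytoplasm and is itself made anew when NF-kB is active (ENSMUSG00000021025, chr12:55489410-55492647 in mm10, minus strand). Its level was 86.2, 136.2, 72.2, 126.3 and 128.8 CPM in Serine-free HFD libraries 1 to 5, against 836, 60.7, 59.6, 33.3 and 148 CPM in Serine-free CD libraries 1 to 5. The Serine-free HFD values lay close together, while the Serine-free CD values held both the 3 lowest and the 2 highest of all, so the groups overlapped. The count in Serine-free CD library 1 was 371, and its 95% Wilson interval of 755 to 926 CPM, which covers counting error only, does not reach any other library. The mean was 110.0 ± 28.7 CPM in Serine-free HFD and 228 ± 343 CPM in Serine-free CD libraries (SD, n = 5 each). The log2 fold change was −1.02 ± 0.70 (SE), with an edgeR adjusted p of 0.602. Without Serine-free CD library 1 that group averaged 75.4 ± 50.02 CPM and the log2 fold change was 0.60.

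Nfkbiz encodes IkB zeta, a nuclear IkB protein that works as a cofactor at late NF-kB targets (ENSMUSG00000035356, chr16:55811375-55838899, minus strand). It had 9.87, 20.3, 7.58, 15.6 and 8.84 CPM in Serine-free HFD libraries, against 69.9, 3.75, 5.74, 3.42 and 3.89 CPM in Serine-free CD libraries. Apart from Serine-free CD library 1, every Serine-free HFD library was above every Serine-free CD library. Means were 12.4 ± 5.36 and 17.3 ± 29.4 CPM for Serine-free HFD and Serine-free CD, and 4.20 ± 1.05 CPM for the 4 Serine-free CD libraries without library 1. The log2 fold change was −0.16 ± 0.79 (edgeR adjusted p 0.962) with all libraries and 1.57 without Serine-free CD library 1.

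Tnfaip3 encodes A20, the ubiquitin-editing enzyme that switches off signalling upstream of IKK (ENSMUSG00000019850, chr10:19000910-19015657, minus strand). Levels were 7.87, 11.1, 9.80, 15.9 and 7.58 CPM in Serine-free HFD libraries, against 6.76, 2.31, 4.62, 3.42 and 5.84 CPM in Serine-free CD libraries. The lowest Serine-free HFD library was just above the highest Serine-free CD library, and both rested on few reads: 6 counts in Serine-free HFD library 5 and 3 in Serine-free CD library 1. Tnfaip3 averaged 10.4 ± 3.38 CPM in Serine-free HFD and 4.59 ± 1.79 CPM in Serine-free CD libraries. Its log2 fold change of 1.38 ± 0.47 had an edgeR adjusted p of 0.262.

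Tnfaip2 was found as a gene induced by TNF and encodes a protein linked to membrane protrusions (ENSMUSG00000021281, chr12:111442469-111455018, plus strand). It had 35.5, 29.96, 38.8, 141 and 36.6 CPM in Serine-free HFD libraries, against 699, 29.9, 38.4, 2.20 and 7.79 CPM in Serine-free CD libraries. Values spread from 2.20 to 699 CPM within Serine-free CD alone, whereas 4 of the 5 Serine-free HFD libraries lay between 29.96 and 38.8 CPM. The log2 fold change was −1.40 ± 1.09 (edgeR adjusted p 0.661), and 1.47 without Serine-free CD library 1. An annotated antisense gene that overlaps it, Gm40578, had 6 counts in all Serine-free HFD and 3 in all Serine-free CD libraries.

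Birc3 encodes cIAP2, a ubiquitin ligase of the TNF receptor complex that protects cells from death (ENSMUSG00000032000, chr9:7848699-7873186, minus strand). Its levels were 7.06, 2.77, 6.66, 17.5 and 6.32 CPM in Serine-free HFD libraries, against 9.02, 10.03, 7.15, 7.29 and 13.6 CPM in Serine-free CD libraries. All Serine-free HFD libraries other than library 4 were below every Serine-free CD library, but within counting error. Wilson intervals were 5.66 to 8.81 CPM in Serine-free HFD library 1 and 5.44 to 9.39 CPM in Serine-free CD library 3. Serine-free HFD library 5 and Serine-free CD libraries 1 and 5 rested on 5, 4 and 7 counts. Averages were 8.06 ± 5.55 CPM in Serine-free HFD and 9.42 ± 2.64 CPM in Serine-free CD, and the log2 fold change was −0.14 ± 0.50 (edgeR adjusted p 0.948). Of the 31-base words of its transcripts, 11.3% also occur in transcripts of other genes, so the share of reads assigned to it is less certain than for the other members.

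Cxcl1, Cxcl2 and Cxcl5 bind the receptor Cxcr2 and recruit neutrophils. They lie in 1 cluster on chromosome 5, all on the plus strand, with Ppbp, Pf4, Cxcl3 and Cxcl15 between Cxcl5 and Cxcl1. Cxcl1 (ENSMUSG00000029380, chr5:90891241-90893115) had 3.53, 16.1, 6.75, 40.1 and 16.4 CPM in Serine-free HFD libraries, against 11.3, 4.74, 4.76, 5.46 and 5.84 CPM in Serine-free CD libraries. The Serine-free HFD libraries included both the lowest and the 3 highest values, and the Serine-free CD libraries other than library 1 lay between 4.74 and 5.84 CPM. The value in Serine-free CD library 1 came from 5 counts (Wilson interval 4.81 to 26.4 CPM). Cxcl1 averaged 16.6 ± 14.3 CPM in Serine-free HFD and 6.42 ± 2.75 CPM in Serine-free CD, and the log2 fold change was 1.51 ± 0.60 (edgeR adjusted p 0.341). Without Serine-free HFD library 4 the Serine-free HFD mean was 10.7 ± 6.56 CPM and the log2 fold change 0.79.

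Cxcl2 (ENSMUSG00000058427, chr5:90903871-90905938) had 1.99, 15.0, 11.01, 17.4 and 1.26 CPM in Serine-free HFD libraries, against 4.51, 6.83, 3.08, 3.42 and 29.2 CPM in Serine-free CD libraries. Serine-free HFD libraries 2, 3 and 4 were above 4 of the Serine-free CD libraries and the other Serine-free HFD libraries were below all of them, with Serine-free CD library 5 highest of all. That highest value came from 15 counts (Wilson interval 17.7 to 48.2 CPM), and the lowest, in Serine-free HFD library 5, from 1 count (0.223 to 7.16 CPM). The means were 9.34 ± 7.41 CPM in Serine-free HFD and 9.41 ± 11.2 CPM in Serine-free CD, and the log2 fold change was 0.30 ± 0.74 (edgeR adjusted p 0.920). Without Serine-free CD library 5 that group averaged 4.46 ± 1.69 CPM and the log2 fold change was 1.12, and without Serine-free HFD library 4 it was -0.080. Of the 31-base words of Cxcl2 transcripts, 7.59% also occur in Cxcl3, so reads from these may be divided between the 2 genes.

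Cxcl5 (ENSMUSG00000029371, chr5:90759360-90761624) had 11.9, 43.6, 72.3, 178 and 41.7 CPM in Serine-free HFD libraries, against 6.76, 20.3, 94.6, 2.20 and 9.74 CPM in Serine-free CD libraries. All Serine-free HFD libraries other than library 1 exceeded 4 Serine-free CD libraries, with Serine-free CD library 3 second highest of the 10. Cxcl5 averaged 69.6 ± 64.5 CPM in Serine-free HFD and 26.7 ± 38.5 CPM in Serine-free CD, and the log2 fold change was 1.297 ± 0.82 (edgeR adjusted p 0.563). That log2 fold change was 0.58 without Serine-free HFD library 4 and 2.79 without Serine-free CD library 3.

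Cxcl16 is made as a transmembrane chemokine that is also shed, and binds the receptor Cxcr6 on T and natural killer cells (ENSMUSG00000018920, chr11:70453983-70459984, minus strand). It had 39.6, 60.1, 61.6, 95.2 and 58.1 CPM in Serine-free HFD libraries, against 24.8, 23.8, 32.1, 18.4 and 25.3 CPM in Serine-free CD libraries. The groups did not overlap, and the Serine-free CD libraries differed little from each other. Cxcl16 averaged 62.9 ± 20.1 CPM in Serine-free HFD and 24.9 ± 4.89 CPM in Serine-free CD libraries. Of the 10 genes it had the smallest standard error and adjusted p: the log2 fold change was 1.34 ± 0.34 with an edgeR adjusted p of 0.127. Over 19 alternative settings, from other normalizations to leaving out single libraries, the log2 fold change stayed between 1.13 and 1.48. Zmynd15, which overlaps it on the other strand, had 6 counts in all Serine-free HFD and 5 in all Serine-free CD libraries.

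Ccl20 (ENSMUSG00000026166, chr1:83116766-83119167, plus strand) had 24.3, 18.0, 4.07, 31.3 and 15.2 CPM in Serine-free HFD libraries, against 0, 3.64, 0.701, 9.56 and 1.95 CPM in Serine-free CD libraries. Only Serine-free HFD library 3 fell within the range of Serine-free CD, and library 4 was the highest of the Serine-free CD libraries. Serine-free CD library 1 had 0 counts, where the floor of 3 counts is 6.76 CPM and the 95% Wilson interval reaches 8.66 CPM, and the value in Serine-free CD library 5 came from 1 count. Ccl20 averaged 18.6 ± 10.2 CPM in Serine-free HFD and 3.17 ± 3.83 CPM in Serine-free CD. Its log2 fold change was 2.23 ± 0.69 with an edgeR adjusted p of 0.214, and ranged from 1.92 to 3.23 over the 19 alternative settings. The highest of these came without Serine-free CD library 4, where the edgeR adjusted p was 0.0902. Its receptor gene Ccr6 had 0 counts in all 10 libraries.

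**Figure D2:**
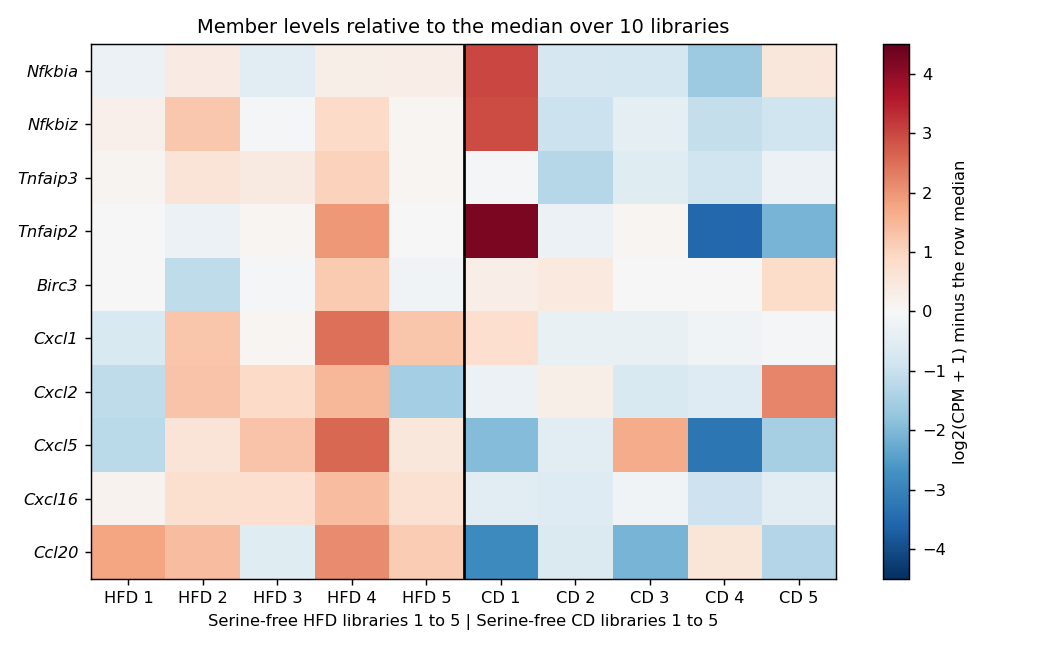
Level of each gene (rows) in each library (columns, Serine-free HFD left, Serine-free CD right), as log2(CPM + 1) minus the gene's median over the 10 libraries. Serine-free HFD library 4 is above the median for all 10 genes, and Serine-free CD library 1 holds the 3 highest positive values, for Nfkbia, Nfkbiz and Tnfaip2.

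The genes did not move as 1 block. Serine-free HFD library 4 was the highest of the 10 libraries for 6 genes (Tnfaip3, Birc3, Cxcl1, Cxcl5, Cxcl16 and Ccl20) and the highest of its group for 8. Serine-free CD library 1 was the highest for Nfkbia, Nfkbiz and Tnfaip2, yet had 0 counts of Ccl20 and only 6.76 CPM of Cxcl5. Serine-free CD library 4 was the lowest for 5 genes. The summed level of the 10 genes was 228, 353, 291, 679 and 321 CPM in Serine-free HFD libraries and 1668, 166, 251, 88.6 and 251 CPM in Serine-free CD libraries.

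**Figure D3:**
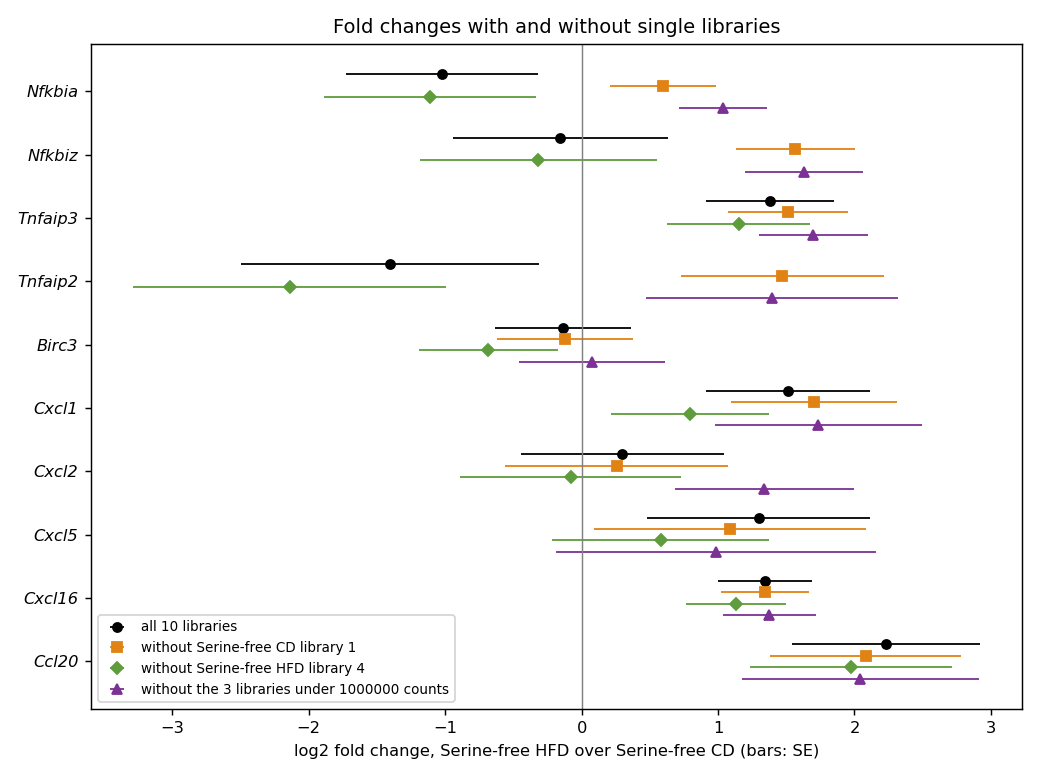
Log2 fold change of each gene, Serine-free HFD over Serine-free CD, with its SE (bars), from fits with all 10 libraries (black circles), without Serine-free CD library 1 (orange squares), without Serine-free HFD library 4 (green diamonds) and without the 3 libraries under 1000000 counts (purple triangles). Nfkbia, Nfkbiz, Tnfaip2, Birc3 and Cxcl2 cross 0 between these fits, whereas Tnfaip3, Cxcl1, Cxcl5, Cxcl16 and Ccl20 keep their side.

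Without Serine-free CD library 1, 9 of the 10 genes had a positive log2 fold change, against 50.4% of all genes, and their median was 1.41. In that fit 5 had an unadjusted p under 0.05, against 13.5% of all genes. Without Serine-free HFD library 4, by contrast, 5 of the 10 were positive, against 50.5% of all genes, with a median of 0.25. In that fit 3 had an unadjusted p under 0.05, against 8.8% of all genes. Without the 3 libraries under 1000000 counts, all 10 were positive, against 52.6% of all genes, with a median of 1.39. In this last fit 6 had an unadjusted p under 0.05, against 16.5% of all genes, and edgeR called 0 of the 10. No setting that used edgeR's test called any of the 10.

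**Figure D4:**
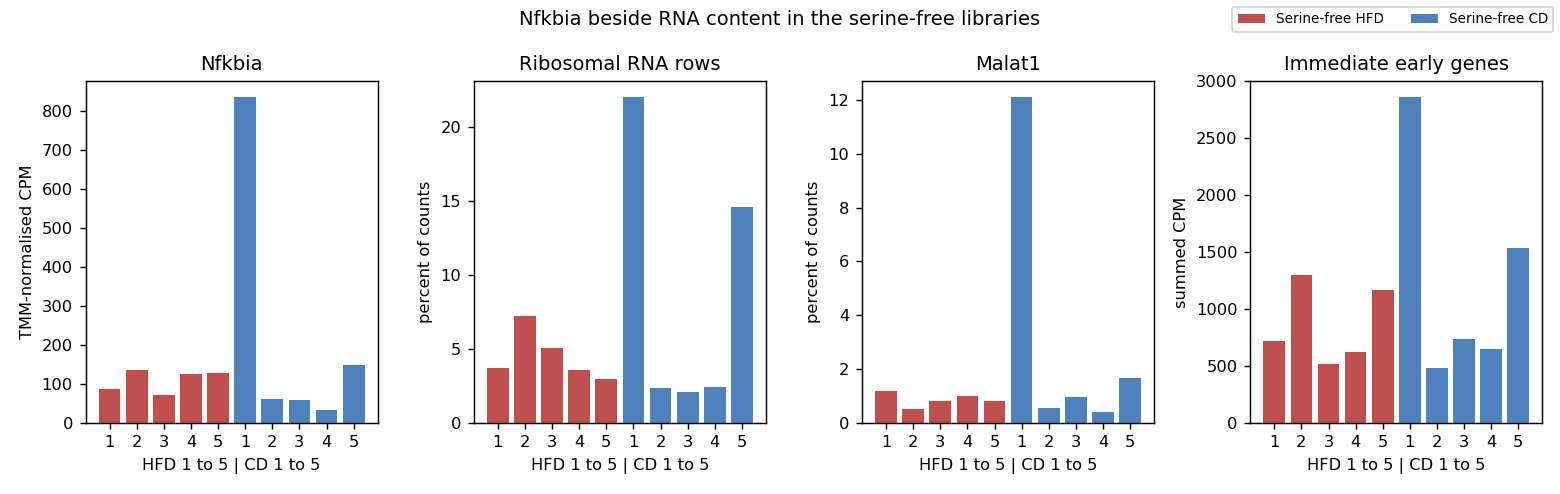
Nfkbia (TMM-normalised CPM), ribosomal RNA rows and Malat1 (percent of counts) and the summed level of the immediate early genes (CPM) in Serine-free HFD libraries 1 to 5 (red) and Serine-free CD libraries 1 to 5 (blue). Serine-free CD library 1 is the highest in all 4 panels.

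Serine-free CD library 1, with its high values of Nfkbia, Nfkbiz and Tnfaip2, also stood apart in RNA content. Besides its shares of ribosomal RNA and Malat1, it had the highest summed level of the immediate early genes, transcripts such as Fos and Jun that respond within minutes to stimulation or handling. That sum was 718, 1295, 520, 625.2 and 1166 CPM in Serine-free HFD libraries and 2858, 480, 739, 645 and 1536 CPM in Serine-free CD libraries. Serine-free CD library 5 came next in ribosomal RNA share (14.6%) and in this sum. It had 148 CPM of Nfkbia but only 3.89 CPM of Nfkbiz (2 counts) and 7.79 CPM of Tnfaip2 (4 counts). The part of RNA content in these levels was not tested. Leaving out the rows of ribosomal RNA and Malat1 before scaling called none of the 10 genes and reversed none of their fold changes. Of the 20 immediate early genes tested, 2 had an unadjusted p under 0.05, against 11.6% of all genes. There edgeR called 0, DESeq2 1 and limma-voom 0, against 0.323%, 2.53% and 1.43% of all genes. Btg2, an antiproliferative gene of this list, averaged 53.4 ± 19.6 CPM in Serine-free HFD and 268 ± 229 CPM in Serine-free CD, which gave a log2 fold change of −2.31 ± 0.60 at an edgeR adjusted p of 0.132. Btg2 was called lower by DESeq2 (adjusted p 0.00722) and by edgeR without Serine-free CD library 2 (0.0323) or 3 (0.0459). Its log2 fold change was −0.62 with limma-voom and −0.97 without the 3 libraries under 1000000 counts. Klf6, the most abundant, averaged 277 ± 136 CPM in Serine-free HFD and 456 ± 502 CPM in Serine-free CD.

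To compare levels between genes, CPM were divided by the length of the gene's merged exons in kilobases. By the median over the 10 libraries, Nfkbia was highest at 66.0 CPM per kilobase, followed by Cxcl5 at 16.6, Cxcl16 at 11.9, Tnfaip2 at 7.23 and Ccl20 at 4.80. Cxcl1 had 3.36, Cxcl2 2.74, Nfkbiz 1.64, Birc3 1.44 and Tnfaip3 0.992 CPM per kilobase. No neighbours in this order kept it in all 10 libraries: Cxcl16 exceeded Tnfaip2 in 9 of 10 libraries, Nfkbia exceeded Cxcl5 in 8 and Birc3 exceeded Tnfaip3 in 8. The other neighbouring pairs kept this order in 5 to 7 libraries.

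In the rest of the pathway few genes were called. For the counts below, edgeR called 0.323% of all genes, DESeq2 2.53% and limma-voom 1.43%. An unadjusted p under 0.05 was found for 11.6% of all genes. Among the NF-kB subunits, edgeR called 0 of 5, DESeq2 and limma-voom called none, 2 had an unadjusted p under 0.05, and their median log2 fold change was 0.69. Rela, the main activating subunit, averaged 33.7 ± 11.3 CPM in Serine-free HFD and 16.8 ± 5.61 CPM in Serine-free CD. Its log2 fold change was 0.95 ± 0.38 (edgeR adjusted p 0.341). Of the 5 subunits, only Rela had fully separate groups, against 3.65% of all genes in either direction and 2.23% in the higher direction. The margin was narrow, with 23.0 CPM in Serine-free HFD library 3 against 22.0 CPM in Serine-free CD library 3. Serine-free CD libraries 1 and 5 held only 8 and 4 counts of Rela. Nfkb1, which encodes the precursor of p50, averaged 15.2 ± 4.25 CPM in Serine-free HFD and 11.8 ± 6.80 CPM in Serine-free CD.

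Of the IkB and IKK genes 10 of 14 were tested and 0 had an unadjusted p under 0.05. None was called by edgeR, DESeq2 or limma-voom. Ikbkb, the kinase IKK beta, averaged 31.2 ± 5.86 CPM in Serine-free HFD and 30.99 ± 11.4 CPM in Serine-free CD, and Tab2, an adaptor of the kinase TAK1, averaged 30.5 ± 10.4 CPM in Serine-free HFD and 41.7 ± 41.2 CPM in Serine-free CD. Of the upstream receptors and adaptors 19 of 22 were tested. There edgeR called 0, limma-voom 0 and DESeq2 1, and 3 had an unadjusted p under 0.05. Their most abundant genes were Irak1, a kinase below the interleukin-1 and Toll-like receptors, with 86.8 ± 18.0 CPM in Serine-free HFD and 107.7 ± 24.8 CPM in Serine-free CD, and the TNF receptor adaptor Traf2, with 30.6 ± 8.19 CPM in Serine-free HFD and 23.0 ± 13.0 CPM in Serine-free CD.

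Few of the cytokines that start the pathway had enough counts. Of the 12 listed, 4 passed the filter on low counts, 0 were called by any of the 3 tools, and 1 had an unadjusted p under 0.05. Il33, an alarmin stored in nuclei, averaged 108.8 ± 61.9 CPM in Serine-free HFD and 74.7 ± 65.8 CPM in Serine-free CD, while Il1a averaged 12.1 ± 14.9 CPM in Serine-free HFD and 4.18 ± 4.73 CPM in Serine-free CD. Library 4 of Serine-free HFD held 38.6 CPM of Il1a, and without it the log2 fold change was 0.54, against 1.79 with all libraries. Il17a and Il17c had 0 counts in all 10 libraries. Genes of negative feedback beyond those above gave 0 calls of 8 tested with each of the 3 tools, none at an unadjusted p under 0.05, and a median log2 fold change of 0.01. Tax1bp1 and Itch, partners of A20, averaged 213 ± 37.7 and 46.2 ± 6.22 CPM in Serine-free HFD and 259 ± 142 and 54.2 ± 26.6 CPM in Serine-free CD.

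In the lists of pathway genes beyond the 10, 2 genes passed edgeR's test, both higher in Serine-free HFD libraries, a direction in which 0.153% of all genes were called. The chemokine Ccl7, which attracts monocytes, had 25.4, 26.5, 18.9, 22.0 and 34.1 CPM in Serine-free HFD libraries, against 4.51, 4.30, 1.40, 1.37 and 5.84 CPM in Serine-free CD libraries. Its lowest Serine-free HFD value was more than 3 times its highest Serine-free CD value, and its log2 fold change was 3.14 ± 0.50 (edgeR adjusted p 0.00795), with an adjusted p of at most 0.0352 in all 19 alternative settings. That highest Serine-free CD value, in library 5, came from 3 counts, and the value in library 1 from 2. Csf1, the growth factor of macrophages, averaged 7.05 ± 0.679 CPM in Serine-free HFD, against 0.495 ± 0.560 CPM in Serine-free CD (log2 fold change 3.17 ± 0.59, edgeR adjusted p 0.0265). It had 0 counts in Serine-free CD libraries 1 and 5, where the floor of 3 counts is 6.76 and 5.84 CPM. A level near that of Serine-free HFD is therefore hard to tell from 0 there. The value in Serine-free HFD library 5 came from 6 counts. The call of Csf1 was lost in 9 of the 19 settings, with adjusted p-values of up to 0.111. Both genes were high in the libraries with the high smooth muscle markers, and the part of those cells was not tested.

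Ccl7 was the 1 gene that edgeR called among the 11 of 32 other chemokines tested, where DESeq2 called 2 and limma-voom 1. Csf1 was the 1 that edgeR called among the 20 of 31 other NF-kB targets tested, where DESeq2 and limma-voom each called 2. The medians of these lists were 0.02 and 0.25, and 4 genes of each had an unadjusted p under 0.05, against 11.6% of all genes. Of all genes, DESeq2 called 2.53% and limma-voom 1.43%. Among the other NF-kB targets tested, the groups of 2, Csf1 and Vcam1, did not overlap, against 3.65% of all genes in either direction. Lif of the same list, also named after its values were seen, did not pass the filter on low counts and was not tested. Its groups were separate too, higher in Serine-free HFD, with 5.85 ± 4.41 CPM there and 0.336 ± 0.428 CPM in Serine-free CD. Vcam1, named after its values were seen, averaged 3.24 ± 1.66 CPM in Serine-free HFD and 0.172 ± 0.236 CPM in Serine-free CD (edgeR adjusted p 0.0832). Among the 11 other chemokines tested, the groups were separate for 3 (Ccl7, Ccl27a and Ccl6), against 3.65% of all genes in either direction. Ccl27a and Ccl6 were named after their values were seen. So were Pf4, Ccl4 and Ccl21a, which did not pass the filter on low counts and were not tested. Their groups were separate too, all lower in Serine-free HFD, with means of 0.146, 0.149 and 0 CPM there. In Serine-free CD these averaged 2.50, 1.47 and 4.07 CPM. Ccl27a averaged 21.3 ± 5.28 CPM in Serine-free HFD and 11.3 ± 3.30 CPM in Serine-free CD, and Ccl6 averaged 1.95 ± 1.83 CPM in Serine-free HFD and 10.3 ± 6.33 CPM in Serine-free CD, with edgeR adjusted p-values of 0.371 and 0.210. Cxcl15, a neutrophil chemokine of the chromosome 5 cluster, resembled Cxcl5 in having its peak in Serine-free HFD library 4, at 340 CPM. It averaged 102.1 ± 136 CPM in Serine-free HFD and 24.7 ± 17.5 CPM in Serine-free CD (edgeR adjusted p 0.341). Ppbp of the same cluster averaged 17.3 ± 17.0 CPM in Serine-free HFD and 27.3 ± 37.8 CPM in Serine-free CD. The abundant survival gene Cflar averaged 745 ± 243 CPM in Serine-free HFD and 938 ± 126 CPM in Serine-free CD, and the cell cycle gene Ccnd1 averaged 222 ± 38.5 CPM in Serine-free HFD and 349 ± 331 CPM in Serine-free CD.

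Receptors for the chemokines were mostly near 0, with 17 of 23 genes under 1 CPM in every library. Among these receptor genes 3 were tested, 0 were called by any of the 3 tools, 0 had an unadjusted p under 0.05, and 7 had 0 counts in all 10 libraries. Cxcr2, the receptor for Cxcl1, Cxcl2 and Cxcl5, averaged 32.8 ± 10.8 CPM in Serine-free HFD and 51.8 ± 15.5 CPM in Serine-free CD (log2 fold change −0.69, edgeR adjusted p 0.472). The scavenger receptor Ackr3 averaged 16.1 ± 11.1 CPM in Serine-free HFD and 24.8 ± 19.99 CPM in Serine-free CD. The neutrophil markers, a list that includes Cxcr2, summed to 285 to 992 CPM in Serine-free HFD and 169 to 598 CPM in Serine-free CD libraries, 87.8% of it from Ly6g, while the granule genes Elane, Camp and Ngp had 0 counts everywhere. Macrophage and dendritic markers summed to 69.1 to 101 CPM in Serine-free HFD and 52.4 to 129 CPM in Serine-free CD, 45.0% of it from Cd14. Their 5 tested genes went both ways, 2 higher and 3 lower in Serine-free HFD. Cd14 averaged 51.5 ± 10.3 CPM in Serine-free HFD and 29.2 ± 24.5 CPM in Serine-free CD. Lyz2, named after its values were seen, averaged 4.40 ± 6.07 CPM in Serine-free HFD and 34.4 ± 26.6 CPM in Serine-free CD (edgeR adjusted p 0.0760). Fibroblast markers summed to 129 to 241 CPM in Serine-free HFD and 37.8 to 276 CPM in Serine-free CD, and endothelial markers to 1.26 to 4.98 CPM in Serine-free HFD and 4.63 to 33.8 CPM in Serine-free CD. Within these lists edgeR called 1 of 8 fibroblast genes tested, Postn, higher in Serine-free HFD, against 0.153% of all genes. It called 1 of 5 macrophage and dendritic genes tested, Fcer1g, lower, against 0.17%. Both were named after their values were seen. Postn averaged 7.52 CPM in Serine-free HFD and 0.668 CPM in Serine-free CD. Fcer1g averaged 0.0151 CPM in Serine-free HFD, from 1 count, and 2.57 CPM in Serine-free CD. Over the 19 alternative settings, calls ranged from 0 to 5 in the fibroblast list and from 0 to 3 in the macrophage and dendritic list. Lymphocyte markers summed to at most 3.24 CPM in Serine-free HFD and 7.13 CPM in Serine-free CD, and 7 of the 15, Cd3e and Cd4 among them, had 0 counts. The part of these cells in the chemokine levels was not tested.

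**Figure D5:**
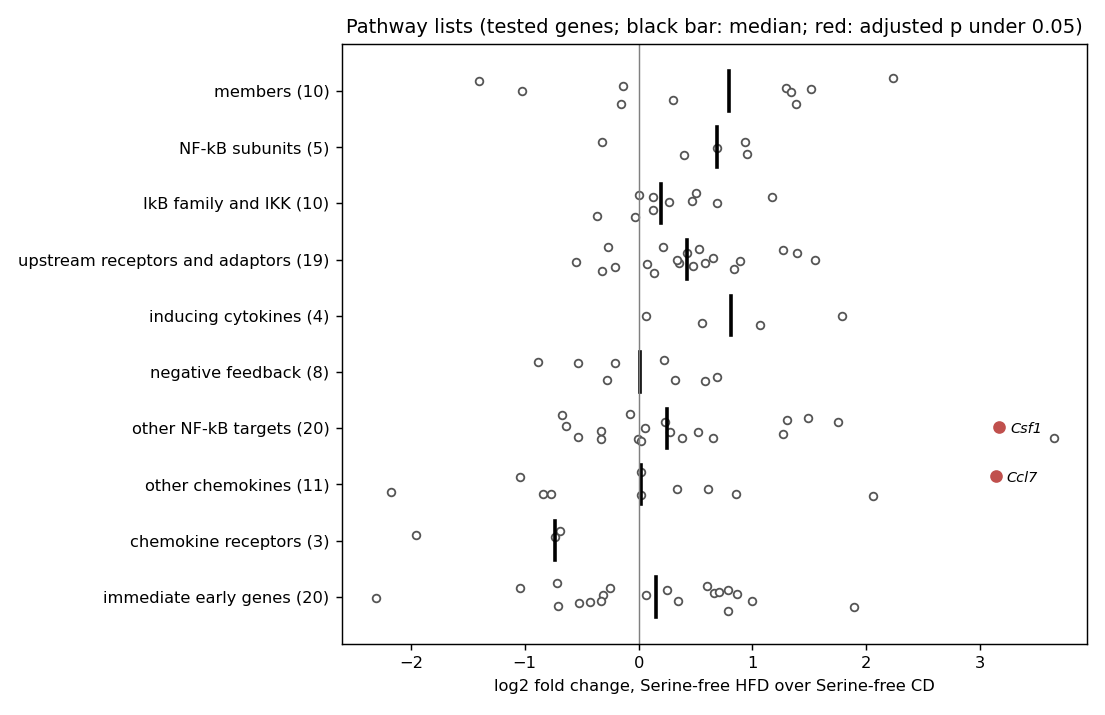
Log2 fold change (Serine-free HFD over Serine-free CD) of each tested gene in the 10 genes described and in 9 other lists of the pathway, with the number tested in brackets. Black bars are medians, red points were called by edgeR at an adjusted p under 0.05, and vertical position within a row carries no value. Csf1 and Ccl7 are the only genes that edgeR called in these lists.

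The 2 members with the highest mean CPM, not corrected for length, were Nfkbia and Tnfaip2, the mean of Tnfaip2 being raised by its 699 CPM in Serine-free CD library 1. They were compared with all 10526 tested genes above a mean log2 CPM of 1. Levels most like those of Nfkbia over the 10 libraries were found for Ccdc6, Gfpt1 and Ube2q2, with Pearson correlations of log2 CPM of 0.979, 0.967 and 0.965. For Tnfaip2 they were Frmd6, Errfi1 and Gm44292, at 0.949, 0.944 and 0.942. These describe the 10 libraries, which share their depth and RNA content, and Serine-free CD library 1 is extreme for both genes. Without it the correlations were 0.930, 0.907 and 0.885 for Nfkbia and 0.898, 0.938 and 0.902 for Tnfaip2.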

How the data were processed

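Libraries were poly(A)-selected and strand-specific, per the labels' protocols. As deposited, the data are 1 table of estimated counts in whole numbers for 18 libraries. The submitters' processing notes name Salmon 1.3.0 and the build mm10, and the sources used here give neither annotation release nor filter. Salmon shares out reads with several possible transcripts by estimation. In the 8 CD and HFD columns the row labels cannot name the genes counted (Actb, Gapdh and Epcam have 0 counts there), so these columns were not used. The table holds 1243 rows with an identifier and no symbol, which were kept.

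Serine-free HFD was tested against Serine-free CD with edgeR 4.0.16 (quasi-likelihood, robust, TMM, filterByExpr, Benjamini-Hochberg over 11780 genes, threshold 0.05) in R 4.3.3. SDs and CPM are on TMM-scaled library sizes, and intervals are 95% Wilson intervals. Coordinates are from GENCODE and promoters from RefSeq. The members and all gene lists were chosen with earlier results of these data known, and Rn18s-rs5 was added to the ribosomal RNA rows after seeing the data. Named genes are all members, in each pathway list up to 4 called genes and the 2 most abundant, and for 2 members the 3 genes most correlated. Simulated counts had 100 genes changed 2-fold and 100 changed 4-fold, and 3 unchanged genes were called. Alternatives were RLE and upper quartile scaling, ribosomal RNA and Malat1 rows left out, no filter or at least 10 counts in 5 libraries, DESeq2 1.42.0, limma-voom (limma 3.58.1), a replicate block, single libraries left out, and the 3 shallowest left out. Library totals ran from 499774 to 12841275, which sets the precision.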

Additional observations from a re-analysis of the deposited data

Results flagged for a closer look

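Of 24 sets of 5 libraries examined, 8 had a library whose gap to its nearest neighbour exceeded 0.71 of the set's range. Chance passes this limit in about 5% of sets if values are normally distributed. Values here were not log-transformed and the sets share libraries, so the 8 cannot be set against that share. Serine-free CD library 1 was high for Nfkbia at 836 CPM (others 33.3 to 148), Nfkbiz at 69.9 CPM (others 3.42 to 5.74), Tnfaip2 at 699 CPM (others 2.20 to 38.4) and Cxcl1 at 11.3 CPM (others 4.74 to 5.84). The Cxcl1 value came from 5 counts (95% Wilson interval 4.81 to 26.4 CPM). In Serine-free CD library 1 Malat1 took 12.1% of counts (others 0.409% to 1.66%). Serine-free HFD library 4 was high for Tnfaip2 at 141 CPM (others 29.96 to 38.8). Serine-free CD library 5 was high for Cxcl2 at 29.2 CPM (others 3.08 to 6.83), and Serine-free CD library 3 for Cxcl5 at 94.6 CPM (others 2.20 to 20.3).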

How the results depend on the processing

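The number of genes called, 38, was 78 without a filter, 18 with at least 10 counts in 5 libraries, 298 with DESeq2, 168 with limma-voom, 22 with the replicate block, and 16 to 88 with single libraries left out (16 without Serine-free HFD library 4, 88 without Serine-free CD library 2). Of the 10 members, DESeq2 called 1, limma-voom 2 and the other settings 0. Whether the replicate numbers pair the libraries is not said in the labels. The correlations of same-numbered deviations ran from -0.211 to 0.136, and only library 3 matched its own number best. Depth and RNA content also enter these correlations, so they cannot settle it. The block called no member, and neither did the main fit.

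Some directions reversed, and the cause was not tested. Log2 fold changes with limma-voom and without the 3 libraries under 1000000 counts were 0.63 and 1.04 for Nfkbia, 1.20 and 1.63 for Nfkbiz, 1.37 and 1.39 for Tnfaip2, 0.0015 and 0.078 for Birc3, 0.37 and 0.45 for Tab2, 0.14 and 0.38 for Tax1bp1, 0.056 and 0.14 for Itch, 0.65 and 0.92 for Ccnd1, and 0.21 and 0.62 for Klf6. With the replicate block they were 0.14, 0.82 and 0.59 for Nfkbia, Nfkbiz and Tnfaip2. Leaving out single libraries gave ranges of -1.34 to 0.60 for Nfkbia, -0.53 to 1.57 for Nfkbiz, -2.14 to 1.47 for Tnfaip2, -0.68 to 0.085 for Birc3, -0.080 to 1.12 for Cxcl2, -0.60 to 0.39 for Tab2, -0.13 to 0.15 for Ikbkb, -0.44 to 0.11 for Tax1bp1, -0.31 to 0.12 for Itch, -0.87 to 0.032 for Ccnd1, -1.48 to 0.58 for Ppbp and -0.98 to 0.20 for Klf6. Ikbkb, near 0 throughout, was also -0.067 with RLE scaling, -0.042 without ribosomal RNA and Malat1, -0.0015 with the stricter filter, -0.058 with DESeq2 and -0.070 without the 3 libraries. The 3 shallow libraries limit what can be read from low genes.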
